A study of Homo sapiens with 12 samples.

Results

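The regions described here were the genomic intervals in which the cohesin subunit SMC1 gave a ChIP-seq peak in wild-type and ΔWAPL HAP1 cells but none in ΔSCC4 or ΔWAPL/ΔSCC4 cells. They were selected on the presence or absence of SMC1 peaks, after the SMC1 peak lists of the 4 genotypes had been merged wherever intervals shared at least 1 bp. This rule gave 992 of the 38018 merged SMC1 regions, or 2.61%. Among the 17290 regions with a peak in both wild-type and ΔWAPL cells, the 992 made up 5.74%.

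HAP1 cells are human, nearly haploid and of chronic myeloid leukaemia origin, and the p53 impairment of the parental line is shared by all 4 genotypes. ΔWAPL and ΔSCC4 cells were clones in which CRISPR cutting had placed a blasticidin or a puromycin resistance cassette in the gene, and ΔWAPL/ΔSCC4 cells came from ΔWAPL cells by deletion of SCC4, so that the double deletion shares the clonal history of ΔWAPL. No drug or other treatment set the groups apart. SMC1, CTCF and non-specific IgG were each precipitated once in each genotype, which gave 12 libraries without replicates. No p-value was therefore computed, and the intervals below are 95% intervals that cover counting error only. The peak lists hold no measure of WAPL or SCC4 themselves, so the deletions could not be checked in them.

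Cohesin is a ring-shaped complex that holds DNA strands together and forms chromatin loops. SCC4, encoded by MAU2, and its partner SCC2, encoded by NIPBL, load cohesin onto DNA, WAPL opens the ring and releases it, and CTCF, a zinc-finger protein that binds a long asymmetric DNA motif, marks most sites where cohesin accumulates. Cohesin is also found at active promoters, where the loader complex resides.

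The 992 regions fell into a large group at CTCF peaks and a smaller group at gene starts without CTCF. A wild-type CTCF peak overlapped 763 of them (76.9%, 74.2 to 79.4%), and 537 of these lay further than 1 kb from any annotated transcript start. Another 199 regions had a start site within 1 kb of the SMC1 summit and no wild-type CTCF peak, 226 had both and 30 had neither. The sequences below show DNA of the regions in 3 of these groups, and not every printed stretch holds the SMC1 summit. All come from members without an IgG peak that scored best in both wild-type and ΔWAPL cells. They are given on the plus strand of GRCh37, the assembly that hg19 is made from.

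At CTCF-bound members away from gene starts, each line shows the best match to the CTCF motif within 50 bp of the wild-type CTCF summit. The match is in capitals, with 20 bp on each side. The motif, 19 bp long with the consensus NNGCCACNAGGGGGCGCNN, was learned on the odd-numbered chromosomes from strong CTCF peaks of wild-type cells. All 6 members that the rule took lay in introns, and the match ran on the plus strand at PLEKHA7, IMPDH1, FTO and PIP5K1C and on the minus strand at IVD and ACVR2B.
PLEKHA7 (chr11:16967616-16967674): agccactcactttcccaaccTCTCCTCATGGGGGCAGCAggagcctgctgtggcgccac
IVD (chr15:40714274-40714332): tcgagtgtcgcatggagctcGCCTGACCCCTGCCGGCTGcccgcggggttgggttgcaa
IMPDH1 (chr7:128038765-128038823): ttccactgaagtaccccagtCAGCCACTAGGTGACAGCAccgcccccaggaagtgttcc
ACVR2B (chr3:38521494-38521552): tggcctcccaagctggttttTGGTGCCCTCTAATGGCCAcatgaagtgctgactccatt
FTO (chr16:53979998-53980056): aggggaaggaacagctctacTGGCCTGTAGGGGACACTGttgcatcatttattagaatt
PIP5K1C (chr19:3665997-3666055): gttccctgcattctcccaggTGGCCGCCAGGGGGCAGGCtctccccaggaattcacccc

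At members with both a CTCF peak and a start site within 1 kb, the match was again searched within 50 bp of the wild-type CTCF summit. It ran on the plus strand at HNRNPH1 and on the minus strand at PLEKHG2, ZNF329 and AGAP3.
HNRNPH1 (chr5:179049877-179049935): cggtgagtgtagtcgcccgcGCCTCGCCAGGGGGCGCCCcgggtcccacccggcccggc
PLEKHG2 (chr19:39902592-39902650): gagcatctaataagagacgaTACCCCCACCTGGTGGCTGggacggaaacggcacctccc
ZNF329 (chr19:58666578-58666636): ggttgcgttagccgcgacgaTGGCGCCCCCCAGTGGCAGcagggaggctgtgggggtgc
AGAP3 (chr7:150808294-150808352): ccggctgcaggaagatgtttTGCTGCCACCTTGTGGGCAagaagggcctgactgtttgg

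At members near a protein-coding start without a CTCF peak in any genotype, none of the 6 that the rule took held a match to the CTCF motif. The lines show the stretch of the region nearest to the SMC1 summit that is free of annotated exons, up to 120 bp long. Capitals mark GGGCGG (the core bound by SP1), CCGGAA (the core bound by ETS factors) and GATGGC (bound by YY1) on either strand. Letters shared by overlapping matches are marked once.
EPS15 (chr1:51985090-51985209): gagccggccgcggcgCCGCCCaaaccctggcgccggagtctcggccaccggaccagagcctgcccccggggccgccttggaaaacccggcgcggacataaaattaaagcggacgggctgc
C11orf68/DRAP1 (chr11:65686625-65686744): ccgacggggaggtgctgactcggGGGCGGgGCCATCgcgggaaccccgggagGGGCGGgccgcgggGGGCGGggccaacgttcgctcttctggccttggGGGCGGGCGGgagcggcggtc
GLRB (chr4:157997157-157997276): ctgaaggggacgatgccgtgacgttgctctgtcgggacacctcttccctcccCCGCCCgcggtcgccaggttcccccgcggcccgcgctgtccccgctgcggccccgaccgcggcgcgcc
POLDIP2/TMEM199 (chr17:26684551-26684664): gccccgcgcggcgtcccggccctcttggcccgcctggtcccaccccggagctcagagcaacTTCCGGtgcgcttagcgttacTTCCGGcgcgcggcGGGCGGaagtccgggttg
EXOSC9 (chr4:122722646-122722735): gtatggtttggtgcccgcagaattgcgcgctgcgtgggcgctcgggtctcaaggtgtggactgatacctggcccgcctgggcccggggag
PTPN4 (chr2:120517378-120517497): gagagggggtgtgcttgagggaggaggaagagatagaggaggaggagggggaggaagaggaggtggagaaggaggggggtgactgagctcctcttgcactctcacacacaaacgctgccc
These stretches were rich in G and C at EPS15, C11orf68/DRAP1, GLRB and POLDIP2/TMEM199, whereas the stretch at PTPN4 was mostly purines on the plus strand, and neither EXOSC9 nor PTPN4 held any of the 10 short motifs searched.

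The SMC1 values of the regions describe what the rule selected and were not tested. MACS2 gives as fold enrichment the summit pileup, plus 1 read, over the background expected there, plus 1 read. The regions had a median SMC1 fold enrichment of 4.88 in wild-type cells (interquartile range 4.35 to 5.47, highest 9.09) and of 5.45 in ΔWAPL cells (4.69 to 6.55, highest 12.8). Regions present in all 4 genotypes had medians of 7.25 and 9.35, and regions missing only in ΔSCC4 had medians of 5.55 and 7.09. The regions missing in both SCC4 deletions were thus weak cohesin sites. In the wild-type SMC1 list their median −log10 q stood at the 18.3th percentile, against the 68.0th for regions present in all 4 genotypes, and 937 of the 992 had a wild-type −log10 q under 10.

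**Figure D1:**
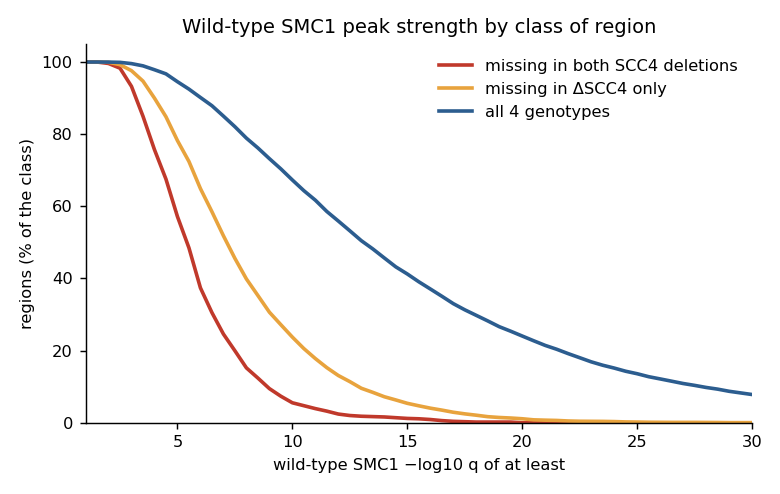
Share of each class of region (y axis, percent of the class) whose wild-type SMC1 −log10 q is at least the value on the x axis. The curve of the 992 regions missing in both SCC4 deletions falls first, with 5.54% of them at 10 or more, and that of the 10707 regions present in all 4 genotypes falls last.

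The genome-wide average recovered from the SMC1 lists ranged from 6.79 reads per kb for ΔWAPL/ΔSCC4 to 8.41 for ΔSCC4, and the ΔSCC4 library was thus the deepest of the 4. At the wild-type summits of the regions the pileup had a median of 15 reads (9 to 73). Relative to the genome-wide average of the same library, the pileup in ΔWAPL was higher than wild-type in 774 of the 992 regions (78.0%), with a median ratio of 1.34 (1.29 to 1.37). For the regions present in all 4 genotypes this ratio was 1.67 (1.65 to 1.69).

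Absence of a peak is not absence of cohesin. In the ΔSCC4 library a pileup of 10 reads would have passed the lowest −log10 p of the list at the median background of the regions, and 9 reads in ΔWAPL/ΔSCC4. Scaled to those libraries, the wild-type pileup exceeded this limit by a median of 1.49-fold (highest 2.99) in ΔSCC4 and 1.59-fold (highest 3.03) in ΔWAPL/ΔSCC4. The wild-type level would have been called at 991 of the 992 regions in each. That count follows largely from the rule, which required a wild-type peak, and the share was at least 99.9% in every class. The observed pileup of regions selected in this way also carries counting error, which the comparison leaves out. The wild-type level was at least 2-fold over the limit at only 81 regions in ΔSCC4 and 101 in ΔWAPL/ΔSCC4. At most of the regions a signal below the wild-type level by less than 2-fold would therefore have been enough to lose the peak, and how much cohesin remained could not be read from the lists. The peak caller also requires a minimum length, so this limit is a lower one.

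The weakest members in wild-type cells were at the promoter of OSBPL5 (chr11:3186247-3186737, −log10 q of 1.68 in wild-type and 4.90 in ΔWAPL), at the promoter of RNF6 (chr13:26796107-26796634, 1.89 and 18.6), and at an intergenic CTCF site (chrX:50722268-50722624, 1.99 and 12.6). Just outside the rule, chr2:219717556-219717952 had −log10 q values of 5.34 in wild-type and 14.8 in ΔWAPL and was kept out by a ΔWAPL/ΔSCC4 peak of 1.75. Likewise chr2:17719942-17720452, with 4.94 and 5.44, was kept out by a ΔSCC4 peak of 2.05. At this edge, membership was decided by peaks close to the calling threshold.

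The CTCF lists were not used by the rule and could be compared. Members overlapped a wild-type CTCF peak less often than regions that kept SMC1 in the double deletion, at 76.9% against 98.9% of the regions present in all 4 genotypes, a difference of −22.0 percentage points (−24.7 to −19.5). Against regions missing only in ΔSCC4, of which 96.0% had one, the difference was −19.1 points (−21.9 to −16.5). Against the 219 regions missing only in ΔWAPL/ΔSCC4, of which 77.2% had one, it was −0.254 points (−6.0 to 6.25), although 11% of those regions overlapped an IgG peak compared with 0.907% of the members. An IgG peak of any genotype overlapped 9 of the 992 regions.

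Weak SMC1 peaks had CTCF less often in every class, so the comparison was repeated within bins of wild-type SMC1 −log10 q. Between 3 and 5, CTCF was present at 65.9% of 358 members and 96.5% of 538 regions present in all 4 genotypes, a difference of −30.5 points (−35.8 to −25.5). Between 5 and 10 the shares were 86.3% of 512 and 98.2% of 2916 (−11.9 points, −15.1 to −9.09), and between 10 and 20 they were 89.1% of 55 and 99.3% of 4631 (−10.2 points, −21.1 to −4.36). The difference to regions present in all 4 genotypes thus held in each of these bins and was smaller among stronger peaks. Against regions missing only in ΔWAPL/ΔSCC4 the differences in the same 3 bins were 5.05 points (−8.65 to 20.2), 6.16 points (−0.876 to 14.8) and 1.86 points (−11 to 15.6), intervals that include 0.

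Start sites showed the opposite pattern. A transcript start lay within 1 kb of the summit of 425 members (42.8%, 39.8 to 45.9%), compared with 23.2% of the regions present in all 4 genotypes, a difference of 19.6 points (16.5 to 22.8), and 24.0% of those missing only in ΔSCC4, a difference of 18.9 points (15.6 to 22.2). At a wild-type SMC1 −log10 q between 3 and 5 the difference to regions present in all 4 genotypes was 26.4 points (19.9 to 32.7), and between 5 and 10 it was 10.1 points (5.88 to 14.6). Between 10 and 20 it was 5.14 points (−4.93 to 18.2), an interval that includes 0. Regions missing only in ΔWAPL/ΔSCC4 were closer to the members, with a start site at 34.7% and a difference of 8.14 points (0.944 to 14.9), and at a −log10 q between 5 and 10 the shares were 33.2% of members and 33.6% of those regions (−0.418 points, −10.2 to 8.57). Among regions with a wild-type CTCF peak, 29.6% of 763 members and 22.6% of 10592 regions present in all 4 genotypes were near a start site (7.04 points, 3.8 to 10.5).

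**Figure D2:**
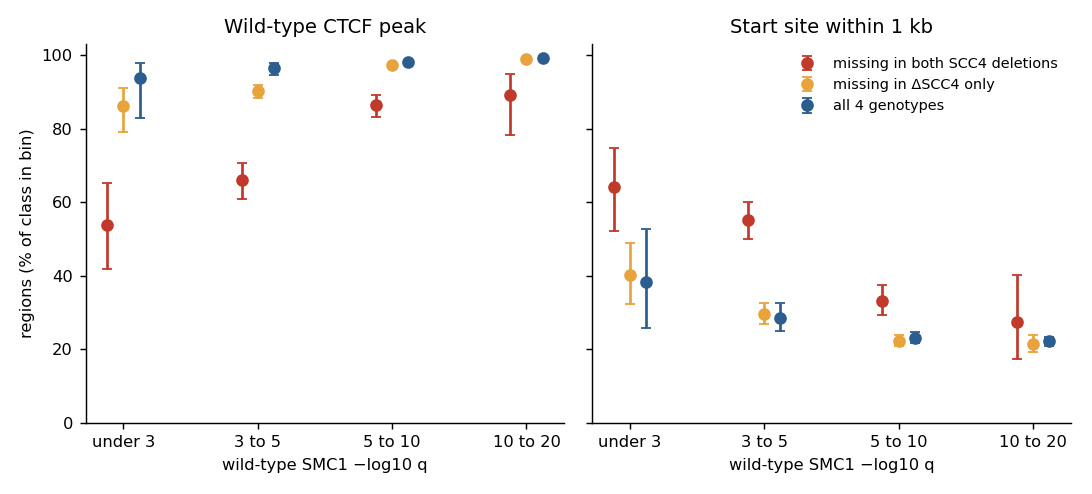
Share of regions with a wild-type CTCF peak (left) and with a transcript start within 1 kb of the wild-type SMC1 summit (right), in percent, by bins of wild-type SMC1 −log10 q. Points are shares and bars 95% Wilson intervals. The regions missing in both SCC4 deletions lie below the other 2 classes plotted on the left in every bin, from 53.7% under 3 to 89.1% between 10 and 20, and above them on the right, where the intervals overlap under 3 and between 10 and 20.

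Seen from the side of the candidates, the share of regions that went missing in both SCC4 deletions fell with the strength of CTCF binding. Of the 609 wild-type and ΔWAPL regions without a wild-type CTCF peak, 229 were members (37.6%, 33.8 to 41.5%). At a wild-type CTCF fold enrichment under 10 the share was 14% (12.3 to 16%), between 10 and 20 it was 4.91% (4.51 to 5.35%), and at 20 and over it was 1.56% (1.26 to 1.94%). The intervals of these 4 groups did not overlap. The groups were not split by SMC1 peak strength, with which the share also fell. It was 26.8% at a wild-type SMC1 −log10 q under 3, 7.91% between 5 and 10 and 0.924% between 10 and 20. Whether the fall with CTCF fold enrichment was separate from SMC1 strength was not tested.

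Among regions with CTCF, those near a start site went missing somewhat more often (6.01%, 5.30 to 6.82%, of 3758) than those away from one (4.16%, 3.83 to 4.51%, of 12923). Of the 520 regions near a start site without CTCF 38.3% were members (34.2 to 42.5%), as were 30 of the 89 regions with neither (33.7%, 24.7 to 44%). Within the range of SMC1 −log10 q from 5 to 10, the shares were 6.72% of 4899 for CTCF away from starts, 8.42% of 1342 for CTCF near starts and 29.8% of 191 for starts without CTCF.

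**Figure D3:**
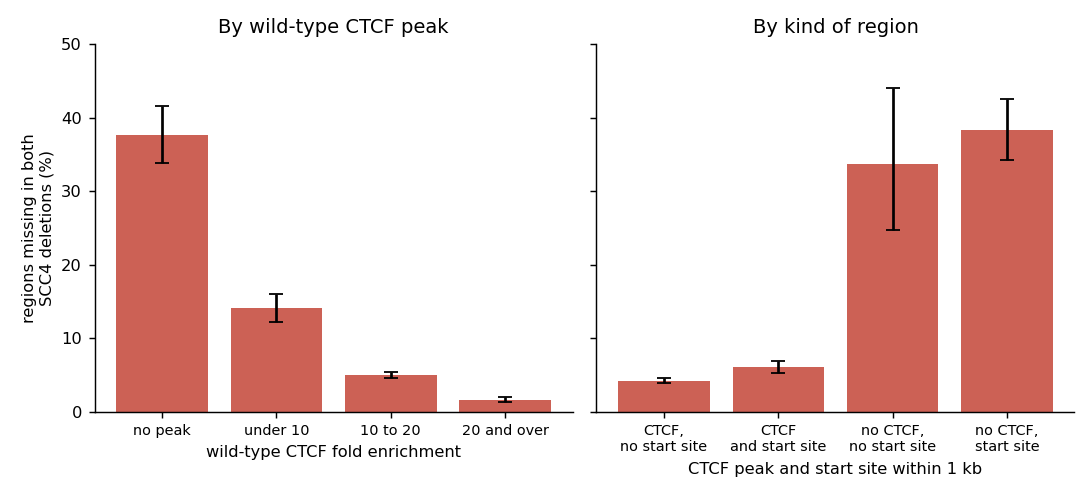
Share of the SMC1 regions with a peak in wild-type and ΔWAPL cells that had none in either SCC4 deletion (y axis, percent), by wild-type CTCF fold enrichment (left) and by kind of region (right). Bars are shares with 95% Wilson intervals, and the share falls from 37.6% without a CTCF peak to 1.56% at a CTCF fold enrichment of 20 and over. The groups are not split by SMC1 peak strength.

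CTCF itself was still called at most members from which SMC1 peaks were missing. Of the 763 members with a wild-type CTCF peak, 705 kept one in ΔSCC4 (92.4%, 90.3 to 94.1%), 745 in ΔWAPL/ΔSCC4 (97.6%, 96.3 to 98.5%) and 747 in ΔWAPL (97.9%, 96.6 to 98.7%). A CTCF peak was called in all 4 genotypes at 699 members, or 70.5% of the 992. Loss in ΔSCC4 touched 58 of the 763 (7.6%), compared with 16.6% of all 43050 wild-type CTCF peaks, and loss in ΔWAPL/ΔSCC4 touched 18 (2.36%), compared with 6.75% of all. The members thus lost CTCF less often than wild-type CTCF peaks at large.

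The regions present in all 4 genotypes kept CTCF more often still, in 99.5% of 10592 cases in ΔSCC4, a difference of −7.14 points (−9.24 to −5.46), and in 99.9% in ΔWAPL/ΔSCC4 (−2.26 points, −3.60 to −1.39). The 58 members that lost CTCF in ΔSCC4 had a median wild-type CTCF fold enrichment of 6.19 (5.76 to 7.81), against 14.1 (13.6 to 14.6) for the 705 that kept it. At a CTCF fold enrichment between 10 and 20, 490 of 498 members kept the peak in ΔSCC4 (98.4%) and 498 of 498 in ΔWAPL/ΔSCC4, and at 20 and over all 82 kept it in both. Between 10 and 20 the share kept in ΔSCC4 was 98.8% among all 19810 wild-type CTCF peaks of that strength, a difference of −0.365 points (−1.90 to 0.442). Loss of the CTCF call was thus concentrated in members with weak CTCF peaks, under a fold enrichment of 10, where 133 of 183 kept it in ΔSCC4 (72.7%). Below 10, the peak was kept at 59.5% of all 17094 wild-type CTCF peaks, a difference of 13.1 points (6.24 to 19.1), and at 90.6% of 512 regions present in all 4 genotypes, a difference of −17.9 points (−25.2 to −11.4).

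CTCF binding was weaker at members than at regions that kept SMC1 in the double deletion. The median wild-type CTCF fold enrichment was 13.6 (13.2 to 14.1) at members, 16.1 (15.9 to 16.2) at regions missing only in ΔSCC4 and 18.8 (18.7 to 18.9) at regions present in all 4 genotypes. At regions missing only in ΔWAPL/ΔSCC4 it was 14.95 (13.85 to 15.88), which overlaps the interval of the members. Within the range of SMC1 −log10 q from 5 to 10 the medians were 14.1 (13.6 to 14.8), 16 (15.8 to 16.1) and 17.2 (17.1 to 17.5), so the order of the members and the classes that kept SMC1 in the double deletion was the same in that range. Between 10 and 20 the median was 16.4 (15.2 to 18) at members and 15.2 (12.2 to 18.1) at regions missing only in ΔWAPL/ΔSCC4. At the 699 members with CTCF in all genotypes, the CTCF pileup over the library average in ΔWAPL was 0.791 (0.772 to 0.800) of the wild-type value. The ratio was 0.766 (0.751 to 0.777) for ΔSCC4 and 0.880 (0.860 to 0.889) for ΔWAPL/ΔSCC4. Regions present in all 4 genotypes had ratios of 0.770, 0.821 and 0.889. This median pileup ratio was below 1 in both classes and in all deletions, including ΔWAPL, in which the members still had SMC1 peaks. With 1 CTCF library per genotype, lower binding cannot be told apart from a difference in enrichment between precipitations.

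SMC1 and CTCF summits lay close together at the 763 members, with a median distance of 32 bp (29 to 34) compared with 24 bp (24 to 25) at regions present in all 4 genotypes. On even-numbered chromosomes, which were not used to learn the motif, 273 of 314 CTCF-bound members had a motif match (86.9%, 82.8 to 90.2%). For CTCF-bound regions the match was searched within 50 bp of the wild-type CTCF summit. The share was 94.2% of 4773 among regions present in all 4 genotypes, a difference of −7.21 points (−11.4 to −3.85). Among regions missing only in ΔSCC4 it was 93.4% of 2271 (−6.45 points, −10.7 to −2.99). Regions missing only in ΔWAPL/ΔSCC4 went the other way, with a match at 77.9% of 77, so that members were higher by 9.02 points (0.162 to 20.0). The median score of the best match was 14 (13.5 to 14.5) at members and 16.4 (16.3 to 16.5) at regions present in all 4. At regions missing only in ΔWAPL/ΔSCC4 it was 14.98 (12.89 to 15.97), which overlaps the interval of the members. A score above 6.04, which 5% of windows beside CTCF peaks reach, was counted as a match. The match was on the plus strand at 336 of 671 members. Of the members without a wild-type CTCF peak 28.4% of 102 held a match (20.6 to 37.8%), compared with 21.0% of 8218 protein-coding start sites. The windows were centred on SMC1 summits for these members and on the start for the start sites, and the difference was not tested.

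The CTCF-bound members away from gene starts are illustrated by the 6 whose motif matches are printed above. In PLEKHA7, which encodes an adherens junction protein (ENSG00000166689, chr11:16967435-16967828), SMC1 fold enrichment was 8.62 in wild-type and 8.46 in ΔWAPL. CTCF fold enrichment there was 11.2 both in wild-type and in the double deletion, 10.1 in ΔWAPL and 10.3 in ΔSCC4. Its CTCF signal thus stayed within a narrow range while the SMC1 call was gone in both SCC4 deletions.

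The site in IVD, which encodes an enzyme of leucine breakdown (ENSG00000128928, chr15:40714126-40714489), had SMC1 values of 8.18 and 8.68 in wild-type and ΔWAPL, with CTCF at 23.2, 15.2, 17.5 and 19.7 in wild-type, ΔWAPL, ΔSCC4 and ΔWAPL/ΔSCC4. In IMPDH1, which encodes an enzyme of guanine nucleotide synthesis (ENSG00000106348, chr7:128038490-128039048), SMC1 was 8.13 and 7.34, and CTCF in the same order was 20.9, 18.5, 20.0 and 15.5. In ACVR2B, a receptor for activins (ENSG00000114739, chr3:38521266-38521694), SMC1 was 8.11 and 7.56 and CTCF 17.5, 17.2, 15.9 and 16.4. All 3 sites had CTCF in every genotype, and the lowest CTCF value was in a different genotype at each.

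The site in FTO, which encodes an RNA demethylase (ENSG00000140718, chr16:53979729-53980317), had SMC1 fold enrichments of 8.14 in wild-type and 6.54 in ΔWAPL, and CTCF at 24.4, 22.5, 19.9 and 23.1. In PIP5K1C, which encodes a phosphatidylinositol phosphate kinase (ENSG00000186111, chr19:3665823-3666282), SMC1 was 7.86 in wild-type and 11.7 in ΔWAPL, and CTCF was 21.4, 17.9, 20.8 and 22.6. At this site the ΔWAPL signal was the strongest of the 6, yet no SMC1 peak was called in ΔWAPL/ΔSCC4.

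Of the members with CTCF near a start site, the one ranked first by −log10 q was 317 bp from the start of HNRNPH1, which encodes a splicing regulator (ENSG00000169045, chr5:179049713-179049996). SMC1 fold enrichment there was 8.16 in wild-type and 6.29 in ΔWAPL, and CTCF was 18, 15.8, 17.9 and 19 in wild-type, ΔWAPL, ΔSCC4 and ΔWAPL/ΔSCC4. The site near PLEKHG2 (ENSG00000090924, chr19:39902483-39902783) had SMC1 at 6.51 and 4.90 and CTCF at 13.3, 10.2, 11.9 and 9.27. At both sites SMC1 was lower in ΔWAPL than in wild-type.

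Near ZNF329, a zinc-finger gene (ENSG00000181894, chr19:58666108-58666831), SMC1 was 7.34 in wild-type and 10.1 in ΔWAPL, and CTCF was 21.4, 19.8, 11.8 and 13.6, so that both SCC4 deletions had less CTCF than the other 2 genotypes. Near AGAP3, which encodes an Arf GTPase-activating protein (ENSG00000133612, chr7:150808078-150808523), SMC1 was 7.06 and 9.40 and CTCF 20.1, 18.4, 16.8 and 17.2. SMC1 was higher in ΔWAPL than in wild-type at both of these.

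**Figure D4:**
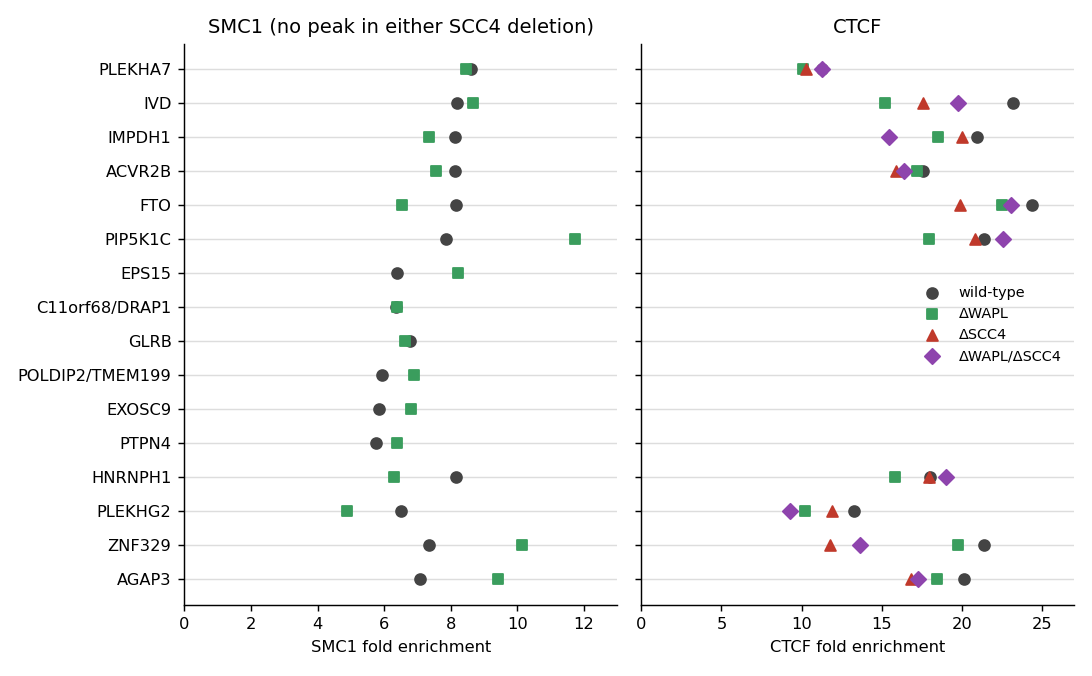
SMC1 fold enrichment in wild-type and ΔWAPL (left) and CTCF fold enrichment in all 4 genotypes (right) at 16 members, 1 row a region, labelled by the gene it lies in or starts near. Each point is 1 library. EPS15 to PTPN4 have no CTCF peak in any genotype, and at the other 10 regions CTCF points of both SCC4 deletions are present, from 9.27 to 23.1.

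Members at gene starts without CTCF lay close to the start. At the 199 such regions the median distance from the SMC1 summit to the nearest start was 73 bp (53 to 97), the start belonged to a protein-coding gene at 188 of them (94.5%), and starts on both strands lay within 1 kb at 72 (36.2%, 29.8 to 43.1%). Corresponding regions present in all 4 genotypes numbered only 96, with starts on both strands at 29.2%, a difference of 7.01 points (−4.63 to 17.7). The median wild-type SMC1 fold enrichment of the 199 members was 4.36, compared with 5.17 for the 537 members with CTCF away from starts, and the wild-type pileup stood 1.35-fold and 1.59-fold over the ΔSCC4 calling limit in the 2 groups.

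The promoter member without CTCF that ranked first by −log10 q was 150 bp from the start of EPS15, which encodes an endocytosis adaptor (ENSG00000085832, chr1:51984921-51985330). Its SMC1 fold enrichment was 6.39 in wild-type and 8.22 in ΔWAPL. At the start of DRAP1, which encodes a subunit of a transcriptional corepressor (ENSG00000175550, chr11:65686300-65687076), it was 6.35 and 6.38, with the start of C11orf68 within 1 kb. At the start of GLRB, which encodes the glycine receptor beta subunit (ENSG00000109738, chr4:157997064-157997778), it was 6.79 and 6.62. The values of both genotypes lay close together at the last 2 promoters.

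At the start of POLDIP2, with the start of TMEM199 within 1 kb (ENSG00000004142, chr17:26684173-26684834), SMC1 fold enrichment was 5.93 in wild-type and 6.90 in ΔWAPL. EXOSC9, which encodes a subunit of the RNA exosome (ENSG00000123737, chr4:122722333-122722735), had 5.85 and 6.82 at its start. PTPN4, which encodes a tyrosine phosphatase (ENSG00000088179, chr2:120517256-120518031), had 5.74 and 6.37. All 3 were higher in ΔWAPL, by less than 1.5-fold.

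The 30 members with neither CTCF nor a start site had a median wild-type SMC1 fold enrichment of 4.69 and a median ratio of ΔWAPL to wild-type pileup of 0.990 (0.914 to 1.28), whereas the ratio was 1.32 (1.25 to 1.36) at the 537 members with CTCF away from starts. The one ranked first by −log10 q lay 4138 bp from the start of the homeobox gene NKX1-1 (chr4:1404259-1404567), with 7.05 in wild-type and 8.35 in ΔWAPL. A region in an intron of ENSG00000282278 (chr4:54772102-54772420) had 5.12 and 5.21. A region in an intron of the non-coding RNA gene LINC01505 (chr9:108781459-108781733) had 5.85 and 5.14, and an intergenic region at chr4:49290930-49291400 had 5.82 and 5.40. Differences between wild-type and ΔWAPL were small at the last 3.

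Base composition followed the kind of region. Within 100 bp of the wild-type SMC1 summit, the median GC content was 70.6% (69.2 to 73.1%) at the 199 promoter members without CTCF, 66.7% around all 19819 protein-coding starts and 49.3% (47.8 to 50.2%) at the 537 members with CTCF away from starts. The corresponding median numbers of CpG dinucleotides were 21, 18 and 3. At promoter regions without CTCF the median GC content was 72.1% in those missing only in ΔSCC4, with 23 CpG. It was 70.4% with 20 CpG in those missing only in ΔWAPL/ΔSCC4, and 69.2% with 23 CpG in those present in all 4 genotypes. High GC content was thus not particular to the members. Promoter members without CTCF held GGGCGG in 62.8% of windows, compared with 53.8% of all protein-coding starts, a difference of 8.99 points (2.05 to 15.4), and CCGGAA in 23.6% compared with 17.9% (5.74 points, 0.343 to 12.1). They held CCAAT, the letters of the CCAAT box, in 12.6% compared with 25.2% (−12.6 points, −16.6 to −7.26), and TATAAA in 1 of 199 windows compared with 6.61% (−6.11 points, −6.66 to −3.8).

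Promoter regions without CTCF that were present in all 4 genotypes or missing only in ΔSCC4 held GGGCGG in 60.4% and 60.7% of windows. The members differed from these 2 classes by 2.40 points (−9.10 to 14.3) and 2.08 points (−7.5 to 11.6), intervals that include 0 and are too wide to call the classes alike. In the same order, these classes held CCGGAA in 27.1% and 24.1%, CCAAT in 5.21% and 12%, and TATAAA in 2.08% and 3.14% of windows, so that their CCAAT and TATAAA shares were also below those of all starts. The intervals of the members' differences to both classes included 0 for these 3 motifs. The windows of regions were centred on SMC1 summits and those of all starts on the start itself. All short motifs were searched on both strands. The YY1 letters shown above were in 10.1% of the windows of promoter members and 10.9% of those of all starts. CACGTG, the E-box, was in 4.02% and 5.69%, and AGATAA, bound by GATA factors, in 4.02% and 3.40%. The cAMP response element TGACGTCA, the NRF1 half-site GCGCATGC and the AP-1 site TGAGTCA were each in at most 3 of the 199 members' windows. For all 6 the interval of the difference to all starts included 0.

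Along the annotation, the wild-type summit lay in an intron at 48.6% of the members, between genes at 26.3%, in a UTR at 13%, in a non-coding exon at 6.96% and in a coding exon at 5.14%. Intergenic summits were rarer than among regions present in all 4 genotypes (41.6%), a difference of −15.3 points (−18.1 to −12.4), and UTR summits more frequent (4.69%), a difference of 8.32 points (6.32 to 10.6). The nearest ΔSCC4 SMC1 summit lay a median of 54940 bp from the members and the nearest ΔWAPL/ΔSCC4 summit 24650 bp. These distances are a description only, since the rule leaves out any region that overlaps such a peak. The ΔSCC4 list holds 12779 peaks and the ΔWAPL/ΔSCC4 list 26558. Membership holds for the peak lists as deposited, and another calling of the same libraries could give other members.

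Chromosome 19 had the highest share of missing regions. Of its 674 regions with wild-type and ΔWAPL peaks, 93 were missing in both SCC4 deletions (13.8%, 11.4 to 16.6%), compared with 899 of 16616 elsewhere (5.41%, 5.08 to 5.77%). Among chromosomes 1 to 22 and X the next share was 6.77% (5.24 to 8.71%) on chromosome 4, and the lowest was 1.80% (0.613 to 5.15%) on chromosome 21. On chromosome Y, 6 of only 48 regions were members (12.5%, 5.86 to 24.7%). That interval also lies above the share over all chromosomes. The higher share on chromosome 19 was present at CTCF sites away from gene starts (54 of 455, 11.9%, against 3.87% elsewhere) and near them (29 of 201, 14.4%, against 5.54%). It was also present at a wild-type SMC1 −log10 q between 5 and 10 (18.2% against 7.46%) and between 10 and 20 (4.11% against 0.803%). Within the chromosome, 24 of the 96 regions of the first 5 Mb were members (25.0%, 17.4 to 34.5%) and 69 of the 578 beyond them (11.9%, 9.54 to 14.8%). This chromosome was singled out after the shares were seen, and the copy number of chromosome 19 in the 4 clones was not tested.

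**Figure D5:**
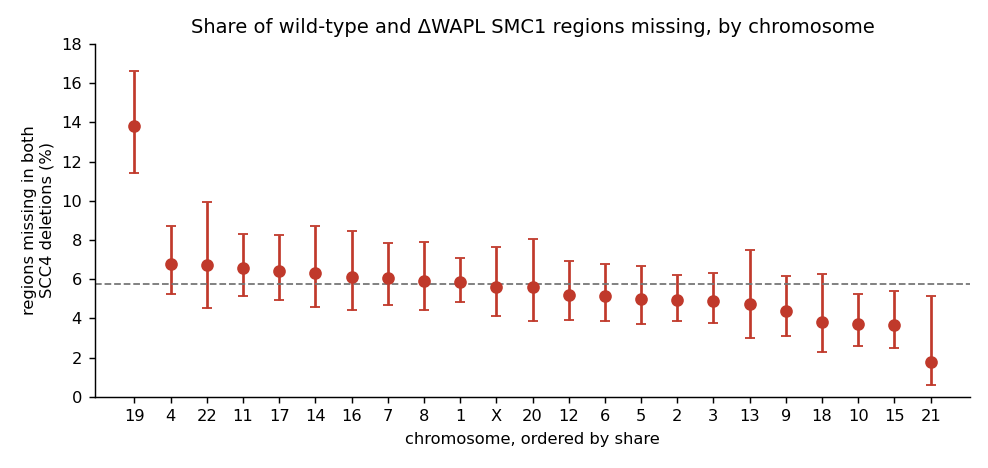
Share of the SMC1 regions with wild-type and ΔWAPL peaks that were missing in both SCC4 deletions (y axis, percent), for chromosomes 1 to 22 and X in order of the share. Points are shares with 95% Wilson intervals, and the dashed line is the share over all chromosomes, 5.74%. Chromosome 19, at 13.8%, is the only one plotted whose interval lies wholly above the line. Chromosome Y, not plotted, had 12.5% of 48 regions, with an interval (5.86 to 24.7%) also above the line.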

How the data were processed

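SMC1, CTCF and IgG ChIP-seq gave 12 libraries from 4 HAP1 genotypes, grouped by their titles, with 1 library per group. The authors mapped reads to hg19 with Bowtie2 and called peaks per library with MACS2 2.1.1 with IgG as control. The calling threshold is not given in the sources used here. The deposited fold enrichment is a ratio of summit pileup to local background, each with 1 read added, and the deposited −log10 p and −log10 q values are those of the caller. Pileup and background were recovered by solving both formulas for a whole number of reads (tolerance 0.001 in the −log10 p), which gave 1 solution for at least 99.9% of the peaks of every list. The lowest background and the shortest interval of a list gave its depth, from 5.43 to 9.05 reads per kb. Reported intervals cover counting error only.

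SMC1 lists were merged where intervals shared at least 1 bp. A CTCF or IgG peak counted when it overlapped the merged region by 1 bp. Start sites came from GENCODE release 44 mapped to GRCh37, whose chromosomes hold every peak. Shares have Wilson, differences of shares Newcombe and medians order-statistic intervals at 95%. The CTCF motif was learned from 1000 strong CTCF peaks of wild-type cells on the odd-numbered chromosomes. The scripts were tested on simulated data. The members, gene lists and comparisons were chosen with earlier results of these data known. Named regions were taken by rule, on chromosomes 1 to 22 and X other than 8, without an IgG peak, ranked by the lower SMC1 −log10 q of wild-type and ΔWAPL: the first 6 with CTCF away from starts, 6 near a protein-coding start without CTCF in any genotype, 4 with both, 4 with neither, and the 3 of lowest wild-type −log10 q. Regions just outside the rule and chromosome 19 were chosen after their values were seen. Alternatives were a −log10 q of at least 5 or 10, equal depth, merging within 500 bp, no IgG regions, chromosomes 1 to 22 and X only, CTCF summits within 250 bp, start sites within 2 kb and protein-coding starts only, with 1 added after seeing the data, CTCF overlap with the wild-type SMC1 interval. Python 3.11.15, numpy 2.4.6, pandas 2.3.3, scipy 1.17.1 and pysam 0.24.0 were used.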

Additional observations from a re-analysis of the deposited data

How the results depend on the processing

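Under 10 alternatives, 57 of 75 values stayed within the main interval or within 1.5 times the main count, 18 moved and none reversed. Most of those that moved did so when members had to be stronger peaks. With a −log10 q of at least 5 in wild-type and ΔWAPL, 496 members were left. The share with CTCF was then 87.9% and its difference to regions present in all genotypes −11.2 points, the share near a start site 32.3% and its difference 9.23 points, CTCF kept in ΔWAPL/ΔSCC4 99.1% and the median CTCF fold enrichment 14.7. With at least 10, 34 members were left, with CTCF at 91.2% (difference −8.30 points), a start site at 23.5% (difference 0.247 points, −10.9 to 16.7), CTCF kept in ΔSCC4 at 87.1% of 31, a motif at 75% of 8, a median CTCF fold enrichment of 17.0 and an IgG peak at 5.88%. The excess near start sites was thus not detectable among the strongest members. Start sites within 2 kb gave a share of 49.6% and protein-coding start sites 37.5%. Equal depth, merging within 500 bp, leaving out IgG regions, chromosomes 1 to 22 and X, and CTCF summits within 250 bp moved no value beyond those bounds, nor did the added overlap with the wild-type SMC1 interval. For equal depth, pileups of SMC1 peaks already called were scaled to the shallowest SMC1 list, without resampling reads. That setting could not restore a peak missed in a shallow library, so it cannot show how far depth decided membership. With 1 library per genotype and antibody, differences between genotypes cannot be told apart from differences between clones, precipitations and libraries.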

Other observations

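Members within 1 kb of a protein-coding start were also set beside 7 lists of gene families. Over all 20149 protein-coding genes, 423 (2.1%) had a member at a start, and 1894 (9.4%) had a region present in all 4 genotypes. Of the 16 genes of cohesin and its regulators none had a member, and 6 had a region present in all 4 genotypes. Of 90 genes of cytosolic ribosomal proteins, RPL17, RPL36AL and RPS15 had a member at their start (3.33%), and of 77 genes of mitochondrial ribosomal proteins MRPL1, MRPL30 and MRPS5 did (3.9%). Of 64 genes of replication-dependent histones, which are switched on in S phase, H4C3 and H4C8 had one (3.12%). On that list 1 region missing only in ΔWAPL/ΔSCC4 lay at the starts of 3 genes, and the other 2 classes had none. EIF3B was the only one of 71 translation factor genes with a member (1.41%), PSMD13 and PSMG3 were those of 50 proteasome genes (4%), and HNRNPDL, HNRNPH1, SNRPA1 and SNRPG those of 58 splicing factor genes (6.9%). These are counts over few regions, and no list was tested.

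The loss of the CTCF call in ΔSCC4 was not shared by ΔWAPL/ΔSCC4 at most of the members concerned. Among the 763 members with wild-type CTCF, 39 had a CTCF peak in wild-type, ΔWAPL and ΔWAPL/ΔSCC4 but not in ΔSCC4, while 3 had one in all but ΔWAPL/ΔSCC4 and 8 had one in wild-type only. The ΔSCC4 CTCF list was the shortest of the 4, with 37625 peaks at 7.42 reads per kb, compared with 43050 peaks at 6.53 in wild-type, 45798 at 8.41 in ΔWAPL and 47608 at 7.09 in ΔWAPL/ΔSCC4. The part of that list's sensitivity in these losses was not tested.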
